A study of Mus musculus with 6 samples.

Results

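The S100 proteins are a family of small calcium-binding proteins, and 10 of their genes were followed in stomach corpus tissue: S100a1, S100a4, S100a6, S100a8, S100a9, S100a10, S100a11, S100a13, S100a14 and S100a16. They were picked by gene name, and all 10 were found among the 18708 rows of the deposited expression table. The tissue came from C57BL/6 mice aged 6 months, 3 of them with the genotype RUNX3 R122C, a point mutation of a transcription factor (the R122C group), and 3 of them wild type (the WT group). Each library, prepared from column-purified, DNase-treated total RNA, came from 1 mouse, so the spread within a group is a spread between animals. The sources used here do not say whether the mutation was on 1 or both alleles, nor the sex of the animals. The values are FPKM, fragments scaled by gene length and library size, so levels of different genes can be set side by side.

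An S100 protein pairs with itself or with a relative, opens a binding surface when calcium rises, and then grips a partner such as an annexin, a cytoskeletal protein or a receptor. Some members are released from cells and act as alarm signals, and a pair of them, S100A8 and S100A9, form calprotectin, a metal-binding complex abundant in neutrophils. In epithelia several members mark surface and stratified layers, and the mouse genes sit together near the genes for the cornified envelope of squamous epithelium. The comparison asks how each transcript differed between R122C and WT corpus, within a study whose title concerns stem cells of the gastric isthmus and their differentiation.

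The libraries held an estimated 31.6 to 44.7 (R122C) and 31.5 to 42.9 (WT) × 10⁶ fragments, judged from the spacing of low values. The 10 most abundant genes took 24.5% to 29.1% of the summed FPKM in R122C libraries and 45.3% to 46.2% in WT libraries, so the choice of scaling bears on every fold change. Genes defining the corpus were present in every library, with the proton pump subunit Atp4a at 326 to 2229 FPKM in R122C and 1962 to 3617 FPKM in WT. Runx3 itself lay at 0.24 to 0.95 FPKM in R122C and 0.12 to 0.34 FPKM in WT, too low to check the labels, and a point mutation need not alter it. The library R122C 3 stood apart by its squamous genes: a list of 12 markers of forestomach epithelium summed to 31.7, 54.6 and 1157 FPKM in R122C mice 1 to 3, against 1.82, 18.6 and 3.02 FPKM in WT mice 1 to 3, and 1 of its 9 tested genes rose. This was Krt13, a keratin of stratified lining epithelium, at 9.17, 49.64 and 300.87 FPKM in R122C mice 1 to 3, against 0.32, 3.77 and 1.21 FPKM in WT mice 1 to 3 (adjusted p = 0.0430 by limma, and 0.0829 to 0.122 without R122C 2, WT 1, WT 2 or WT 3, with median-of-ratios or quantile scaling, or with no filter). Among the 9, Krt5, Krt14, Krt4, Krt6a and Sbsn reached the filter only through R122C 3 and so could not have been called lower. In tissue, fewer cells of a type and less RNA per cell cannot be told apart.

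Of the 10 genes, 2 rose in R122C corpus and 0 fell. The pair that rose, S100a1 and S100a13, are direct neighbours on the chromosome. Another 7 did not pass the test, and S100a8 lay under the filter of a mean of 1 FPKM. The test was limma on log2(FPKM + 1) across 11422 genes, two-sided, with Benjamini-Hochberg adjusted p-values called at 0.05, and it called 6.1% of all tested genes, with 5.27% higher and 0.832% lower in R122C. Of the calls 86.4% were higher, a share that was 68.6% with median-of-ratios scaling, 62.0% with quantile normalization and 94.3% with a common FPKM total. At an unadjusted p under 0.05, 6 of the 9 tested S100 genes were higher and 0 lower, against 15.3% and 4.88% of all tested genes. The median log2 fold change was 1.16 over those 9 genes and 0.10 over all tested genes, but S100a9 reached the filter through R122C 3 alone. The R122C values lay above all WT values for 5 S100 genes, as they did for 20.3% of all tested genes, and below all WT values for 0, against 5.19% of all tested genes.

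S100a1 (ENSMUSG00000044080.9) encodes a calcium-dependent regulator of calcium handling and contractility, best known from heart muscle. Its level was 432.95, 413.83 and 528.97 FPKM in R122C mice 1 to 3, against 130.72, 154.75 and 186.22 FPKM in WT mice 1 to 3. The lowest R122C library was thus above the highest WT library by more than the range within WT. The means were 459 ± 61.7 FPKM in R122C and 157 ± 27.8 FPKM in WT (SD, n = 3 each), and the fitted log2 difference was 1.54 ± 0.21 (SE, adjusted p = 0.00465 by limma).

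S100a13 (ENSMUSG00000042312.9) encodes a protein that accompanies FGF1 and interleukin 1 alpha out of stressed cells. Its level was 91.18, 89.69 and 66.34 FPKM in R122C mice 1 to 3, against 21.8, 38 and 23.34 FPKM in WT mice 1 to 3. The groups were apart here too, but the lowest R122C value was that of R122C 3, the library in which S100a1 was highest. The means were 82.4 ± 13.9 FPKM in R122C and 27.7 ± 8.94 FPKM in WT (SD, n = 3 each), and the fitted log2 difference was 1.57 ± 0.25 (SE, adjusted p = 0.00951 by limma). The cargoes were low: Fgf1 was at 1.75 to 2.87 FPKM in R122C and 1.63 to 2.42 FPKM in WT (limma adjusted p = 0.842), and Il1a reached 0.98 FPKM in R122C and 0.02 FPKM in WT at most.

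Both calls by limma held in all 14 alternatives, and when each of the 6 libraries was left out in turn the adjusted p-values reached 0.0315 for S100a1 and 0.0461 for S100a13. In R122C corpus S100a1 was present at 4.75, 4.61 and 7.97 times the level of S100a13, and in WT corpus at 6.00, 4.07 and 7.98 times. The ratio, examined after the values were seen, therefore ranged as widely within each group as between them (log2 difference of -0.05, exact two-sided permutation p = 0.9, where 0.1 is the smallest that 3 against 3 allows).

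Markers of gland cells also differed between the same groups. Of 8 tested corpus gland genes, 1 rose, 1 fell and 6 did not pass, and their sum was 45776 to 85336 FPKM in R122C and 175817 to 199211 FPKM in WT. Most of that sum was Tff1, Gkn1 and Pgc, which did not pass (limma adjusted p = 0.249, 0.172 and 0.143). Atp4a, Atp4b and Gif overlapped between the groups. Muc6, the mucin of mucous neck cells, was at 1027.73, 596.26 and 537.02 FPKM in R122C mice 1 to 3, against 49.1, 11.61 and 60.88 FPKM in WT mice 1 to 3 (log2 fold change 4.35 ± 0.56 SE, adjusted p = 0.00347 by limma). Muc5ac, the mucin of surface pit cells, was at 285.15, 187.74 and 148.95 FPKM in R122C mice 1 to 3, against 853.37, 1573.67 and 1641.91 FPKM in WT mice 1 to 3 (log2 fold change -2.70 ± 0.33 SE, adjusted p = 0.00312 by limma). Neither gene overlapped between the groups, and both calls held in all 14 alternatives. Of 2 tested enteric glia and neuron markers both fell, Prph, a neuronal filament protein, by 1.27 ± 0.27 and Uchl1, a neuronal ubiquitin hydrolase, by 1.16 ± 0.26 on the log2 scale (SE, limma adjusted p = 0.0312 and 0.0375). Both calls were lost with no filter and without R122C 2, WT 1, WT 2 or WT 3 (0.0760 to 0.121). Of 6 smooth muscle markers 0 passed limma, and at an unadjusted p under 0.05 the count was also 0. The smallest p was that of Myh11, a smooth muscle myosin, at 37.9 to 71.0 FPKM in R122C and 40.8 to 104 FPKM in WT. The part of these cell types in the S100a1 and S100a13 values was not tested.

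These 2 genes lie head to head on chromosome 3, S100a1 on the minus strand at 90511034 to 90514392 and S100a13 on the plus strand at 90514435 to 90524581 (GENCODE M21, GRCm38, the assembly also called mm10). Only 42 bases separate their outermost annotated starts, and no annotated exons of the pair overlap. In RefSeq the starts are 104 bases apart, so that the promoter windows of both genes, which run from 250 bases before to 50 bases after each start, share 204 bases. That stretch is shown because it lies in the promoter windows of both genes that rose, with the 104 bases between the RefSeq starts in capitals. Only the capitals lie upstream of both RefSeq starts, and part of them lies within the GENCODE span of S100a1, which reaches 90514392. It is read on the plus strand of GRCm38.p6 from chr3:90514281-90514484, with S100a1 leaving to the left and S100a13 to the right.
S100a1 and S100a13: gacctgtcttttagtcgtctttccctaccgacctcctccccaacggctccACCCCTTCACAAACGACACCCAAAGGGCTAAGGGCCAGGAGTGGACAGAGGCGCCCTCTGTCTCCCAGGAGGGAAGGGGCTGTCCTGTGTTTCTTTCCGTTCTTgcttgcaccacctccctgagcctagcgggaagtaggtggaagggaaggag

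RefSeq windows were at hand for 8 of the 10 genes, 9 windows in all, and were searched on both strands for the RUNX core TGTGGT and the AP-1 site TGANTCA. The RUNX core stood in 3 of the 9 windows and in 16.8% of all 32851 promoter windows of that length, and the AP-1 site in 2 of the 9 and in 7.81% of all. Neither set of letters was in the windows of S100a1 or S100a13. S100a6, whose transcript did not pass the test, had 3 RUNX cores, at positions -217, -145 and -79 from its start, the first of them on the minus strand and so printed as ACCACA. S100a11 had 2 AP-1 sites, at -136 and -38. One of the 2 S100a16 windows had a RUNX core at -238 and an AP-1 site at -192, and the S100a9 window had a RUNX core at -64. The windows of S100a6 and S100a11 are shown because they hold the most RUNX cores and the most AP-1 sites among the 9, in capitals, both on the plus strand of GRCm38.p6 at chr3:90612644-90612943 for S100a6 and chr3:93520246-93520545 for S100a11. No match overlapped another, and a match is a run of letters, not a measured binding site.
S100a6: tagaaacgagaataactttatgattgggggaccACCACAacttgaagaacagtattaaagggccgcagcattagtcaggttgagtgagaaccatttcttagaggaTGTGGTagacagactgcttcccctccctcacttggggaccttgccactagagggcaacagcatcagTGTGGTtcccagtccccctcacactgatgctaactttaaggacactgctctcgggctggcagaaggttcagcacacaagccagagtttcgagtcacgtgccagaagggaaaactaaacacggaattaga
S100a11: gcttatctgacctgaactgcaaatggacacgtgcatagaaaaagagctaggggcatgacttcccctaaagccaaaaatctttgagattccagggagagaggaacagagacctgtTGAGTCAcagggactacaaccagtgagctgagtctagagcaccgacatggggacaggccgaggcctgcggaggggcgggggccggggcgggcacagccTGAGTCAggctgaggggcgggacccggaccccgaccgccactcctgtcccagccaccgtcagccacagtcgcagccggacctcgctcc

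All 10 genes are on chromosome 3 in 2 groups. S100a1, S100a13, S100a14, S100a16, S100a4, S100a6, S100a8 and S100a9 lie within 185 kb, and S100a11 and S100a10 lie 2825 kb further on, past the cornified envelope genes. The nearest gene outside the cluster on the S100a1 side, Chtop, which encodes a chromatin-associated RNA export factor, was at 32.2, 33.0 and 23.0 FPKM in R122C mice 1 to 3, against 26.1, 23.7 and 16.5 FPKM in WT mice 1 to 3, and did not pass (log2 fold change 0.40 ± 0.23 SE, adjusted p = 0.390 by limma). On the far side Pglyrp4, for a peptidoglycan recognition protein, was at 0.32 FPKM in R122C 3 and listed at 0 in the other 5 libraries. The genes on either side of the second pair, Tchh and Tdpoz1, were at or under 0.06 FPKM in R122C and in WT.

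**Figure D1:**
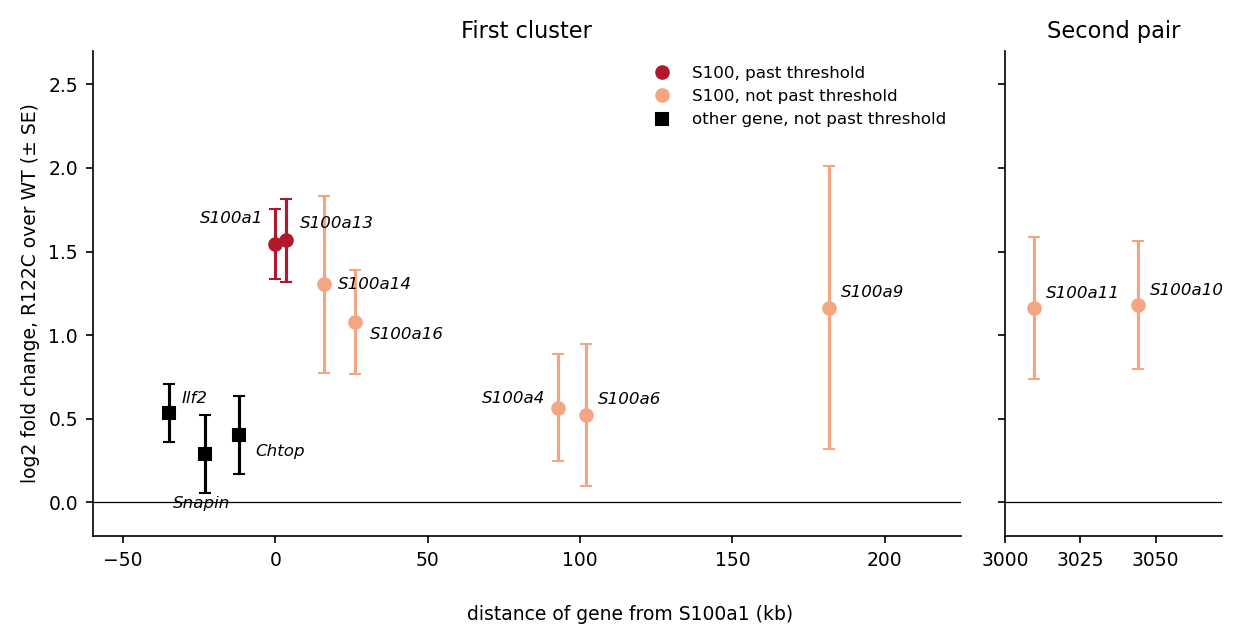
Log2 fold change of R122C over WT with its SE for each tested S100 gene and 3 flanking genes, placed by distance from the S100a1 gene in kb (first cluster on the left, second pair on the right). S100a1 and S100a13 stand at 1.54 and 1.57, and the adjoining gene Chtop at 0.40.

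S100a11 and S100a10, the second pair, had higher values in every R122C library than in any WT library, yet neither passed the test. S100a11, which binds annexin A1, was at 518.41, 820.17 and 1587.25 FPKM in R122C mice 1 to 3, against 258.83, 494.55 and 467.85 FPKM in WT mice 1 to 3. The lowest R122C value was only just above the highest WT value, and R122C 3 was well above the other R122C mice. Its log2 fold change was 1.16 ± 0.42 (SE, adjusted p = 0.168 by limma), and 0.74 without R122C 3 (limma adjusted p = 0.257).

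S100a10, known as p11, does not bind calcium and joins annexin A2 in a complex at the plasma membrane that captures plasminogen. It was at 25.65, 46.92 and 73.85 FPKM in R122C mice 1 to 3, against 12.99, 24.13 and 22.41 FPKM in WT mice 1 to 3. As with S100a11, R122C 1 lay next to the WT libraries and R122C 3 was the highest. Its log2 fold change was 1.18 ± 0.38 (SE, adjusted p = 0.119 by limma). It passed limma without R122C 1 (1.57, adjusted p = 0.0331) and with the libraries set to a common FPKM total (1.40, adjusted p = 0.0478), and missed the threshold without any other single library. The squamous markers were highest in the same library, R122C 3, and their part in the S100a10 and S100a11 values was not tested.

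Of 12 listed annexins, the membrane-binding partners of several S100 proteins, 11 were tested. Of these, 3 rose, 1 fell and 7 missed the threshold, and the median log2 fold change was 0.42. The call rate over all tested genes was 5.27% higher and 0.832% lower. Anxa8, also found in stratified epithelium, was at 12.92, 31.35 and 55.23 FPKM in R122C mice 1 to 3, and at or under 0.91 FPKM in WT (log2 fold change 4.40 ± 0.47 SE, adjusted p = 0.00176 by limma). Anxa8 reached the filter through its R122C values and so could not have been called lower. Its order among the R122C mice was that of S100a10 and S100a11, and also of S100a6 and S100a16. Anxa2, the partner of S100a10, was at 230.87, 411.41 and 475.81 FPKM in R122C mice 1 to 3, against 92.45, 178.51 and 121.77 FPKM in WT mice 1 to 3 (log2 fold change 1.49 ± 0.33 SE, adjusted p = 0.0361 by limma). Anxa1, the partner of S100a11, rose by 1.14 ± 0.27 (SE, limma adjusted p = 0.0471), and Anxa13, an intestinal-type annexin, fell by 2.06 ± 0.47 on the log2 scale (SE, limma adjusted p = 0.0378). The Anxa1 call was lost without any one of the 6 libraries (adjusted p = 0.0562 to 0.119). The Anxa2 call was lost without R122C 2 (0.138), R122C 3 (0.0504), WT 1 (0.0909), WT 2 (0.0541) or WT 3 (0.101), and the Anxa13 call without R122C 2 (0.0681), WT 2 (0.149) or WT 3 (0.113). Without R122C 2, R122C 3, WT 2 or WT 3, Anxa8 was the 1 annexin still called higher. Calls also ended under median-of-ratios scaling, quantile normalization and testing with no filter for Anxa2 (0.125, 0.0796 and 0.0897) and Anxa1 (0.104, 0.0918 and 0.0971), and with no filter for Anxa13 (0.106), while Anxa8 passed in all 14 alternatives.

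The ratio of S100a10 to Anxa2 was 0.111, 0.114 and 0.155 in R122C mice 1 to 3, against 0.141, 0.135 and 0.184 in WT mice 1 to 3. The groups overlapped, with a log2 difference of -0.28 (exact two-sided permutation p = 0.3, smallest possible 0.1). S100a11 stood at 9.79, 15.8 and 22.0 times Anxa1 in R122C mice 1 to 3, and at 9.28, 13.8 and 26.9 times in WT mice 1 to 3, a ratio also chosen after the values were seen (log2 difference of -0.01, exact two-sided permutation p = 1). With 3 mice a group these ratios do not show that partner and S100 transcript kept step, only that no difference in ratio was detectable.

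**Figure D2:**
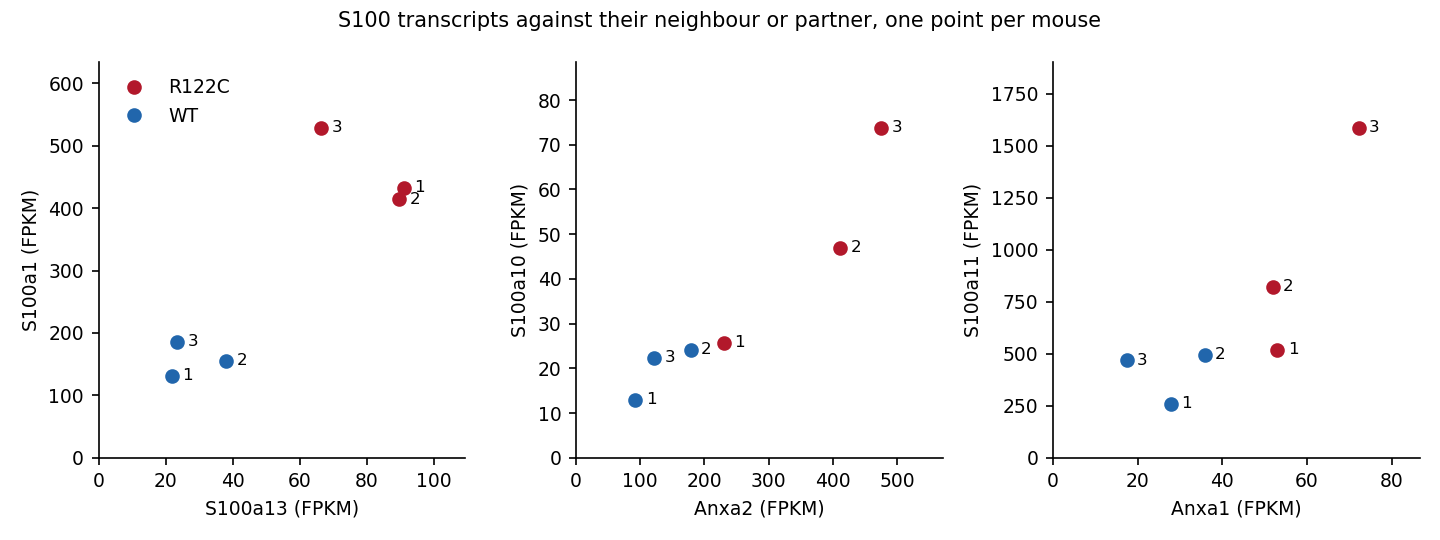
FPKM of S100a1 against S100a13, S100a10 against Anxa2 and S100a11 against Anxa1, with 1 point per mouse, numbered by replicate, R122C in red and WT in blue, on linear axes from 0. R122C 3 is highest on both axes for the annexin pairs, while for S100a1 and S100a13 it is highest in S100a1 and lowest of the R122C mice in S100a13.

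Among the plasminogen system genes on the list of partners, Plat, tissue plasminogen activator, rose by 1.25 ± 0.30 (SE, limma adjusted p = 0.0440), with 3.73, 6.53 and 4.78 FPKM in R122C mice 1 to 3, against 1.27, 2.59 and 0.88 FPKM in WT mice 1 to 3. It was the 1 gene of 10 tested partners to pass, 0 fell, and its call was lost without R122C 2 (0.182), R122C 3 (0.0565), WT 1 (0.112) or WT 3 (0.136), and with median-of-ratios scaling (0.0759), quantile normalization (0.102) or no filter (0.108). Of the same system, Plaur (log2 fold change 1.82 ± 0.52 SE, limma adjusted p = 0.0834) and Plau (1.18 ± 0.38 SE, limma adjusted p = 0.117) did not pass. With Plat, 3 of the 10 partners were higher at an unadjusted limma p under 0.05 and 0 lower. Over all tested genes these shares were 15.3% and 4.88%. The median of these 10 partners was 0.12. They included Cacybp, the binding protein of S100a6, at 18.8 to 23.2 FPKM in R122C and 17.8 to 21.8 FPKM in WT, and Myh9, the non-muscle myosin bound by S100a4, at 52.0 to 66.6 FPKM in R122C and 48.2 to 63.7 FPKM in WT.

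S100a16 and S100a14 are further members of the first cluster. S100a16, a broadly expressed member, was at 75.54, 89.87 and 137.37 FPKM in R122C mice 1 to 3, against 34.1, 69.21 and 40.42 FPKM in WT mice 1 to 3. All R122C values were higher than all WT values, though WT 2 came close, and the change did not pass (log2 fold change 1.08 ± 0.31 SE, adjusted p = 0.0869 by limma). Of the alternatives it passed with a common FPKM total (1.30, adjusted p = 0.0327).

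S100a14, found at epithelial cell borders and a ligand of the receptor RAGE, was at 79.25, 120.47 and 102.48 FPKM in R122C mice 1 to 3, against 17.54, 100.66 and 34.62 FPKM in WT mice 1 to 3. WT 2 lay inside the R122C range, while the other WT mice were well below it. Its log2 fold change was 1.30 ± 0.53 (SE, adjusted p = 0.214 by limma), and without WT 2 it was 1.96 and passed (adjusted p = 0.0307). WT 2 was also the WT library with the highest S100a6, S100a10, S100a11, S100a13 and S100a16.

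Among 7 simple epithelial markers, 3 rose and 0 fell. Epcam, an adhesion molecule of epithelial cells, was at 293, 233 and 267 FPKM in R122C mice 1 to 3, against 78.9, 64.2 and 57.5 FPKM in WT mice 1 to 3 (log2 fold change 1.97 ± 0.20 SE, adjusted p = 0.00138 by limma). Krt7, a keratin of ductal and other simple epithelia, rose by 3.03 ± 0.56 (SE, adjusted p = 0.0173, and 0.0513 without WT 1 or 0.0547 without WT 3) and Krt18, a simple epithelial keratin, by 1.00 ± 0.23 (SE, adjusted p = 0.0381, lost without any one library). Median-of-ratios scaling and testing with no filter ended the calls of Krt7 (0.0564 and 0.0658) and Krt18 (0.156 and 0.0946), as quantile normalization did for Krt18 (0.101), but not that of Epcam. The 7 markers summed to 5714 to 9340 FPKM in R122C and 3621 to 6064 FPKM in WT, and their part in the S100 values was not tested.

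S100a6, called calcyclin, was the most abundant member in both groups. Its level was 1213.21, 1477.48 and 1891.87 FPKM in R122C mice 1 to 3, against 609.54, 2030.2 and 919.07 FPKM in WT mice 1 to 3. The single highest value was that of WT 2, and the groups overlapped. Its log2 fold change was 0.52 ± 0.42 (SE, adjusted p = 0.556 by limma), with 0.14 without WT 1 and 1.00 without WT 2, neither of which passed.

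S100a4, linked to motile and mesenchymal cells and to leukocytes, was low at 8.41, 5.25 and 5.11 FPKM in R122C mice 1 to 3, against 5.63, 4.48 and 2.04 FPKM in WT mice 1 to 3. The groups overlapped and the gene did not pass (log2 fold change 0.57 ± 0.32 SE, adjusted p = 0.380 by limma). Of its 584 annotated exonic bases 302 are shared with the gene model Gm42674 on the same strand, so reads there could not be assigned with certainty. Of 9 fibroblast markers 0 passed (median log2 fold change 0.16, and 0 at an unadjusted limma p under 0.05), and their sum was 85.2 to 109 FPKM in R122C and 51.7 to 155 FPKM in WT. The one of smallest p was Dcn, decorin, at 12.1 to 23.7 FPKM in R122C and 12.3 to 39.0 FPKM in WT (limma adjusted p = 0.439). Of 7 monocyte and macrophage markers, 1 rose and 0 fell. This was Ly6c2, a monocyte surface antigen, at 7.5, 5.12 and 5.07 FPKM in R122C mice 1 to 3, against 2.53, 1.71 and 1.47 FPKM in WT mice 1 to 3 (log2 fold change 1.25 ± 0.24 SE, adjusted p = 0.0185 by limma, and 0.0611 to 0.0929 with no filter or without R122C 2, WT 2 or WT 3). The 12 listed markers of that kind summed to 74.8 to 110 FPKM in R122C and 26.1 to 86.8 FPKM in WT. Ptprc, the pan-leukocyte antigen CD45, was the 1 lymphocyte and leukocyte marker tested, at 1.98, 1.19 and 1.88 FPKM in R122C mice 1 to 3, against 1.12, 0.49 and 0.34 FPKM in WT mice 1 to 3, and did not pass (adjusted p = 0.171 by limma), though the groups did not overlap. The part of these cells in the S100a4 values was not tested.

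The calprotectin genes were listed at 0 or low in 5 of the 6 libraries. S100a9 was at 0.75 and 12.49 FPKM in R122C 1 and R122C 3 and listed at 0 in R122C 2, against 1.1 FPKM in WT 1 and listed at 0 in WT 2 and WT 3. S100a8 was at 0.19 and 4.89 FPKM in R122C 1 and R122C 3, against 0.73 FPKM in WT 1, and was listed at 0 in the same 3 libraries. With the depth estimated above and annotated exon length, these correspond to about 206 fragments of S100a9 and 107 of S100a8 in R122C 3, and to about 25 and 22 in WT 1. Where both were present, S100a9 was 3.95 and 2.55 times S100a8 in R122C 1 and R122C 3, and 1.51 times in WT 1.

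A single library therefore carried the difference in means for the calprotectin genes. S100a9 did not pass (log2 fold change 1.16 ± 0.85 SE, adjusted p = 0.504 by limma), and without R122C 3 it fell under the filter. S100a8, under the filter over the 6 libraries, did not pass an exact two-sided permutation test (p = 0.7, smallest possible 0.1). It entered the limma test in 8 alternatives and passed in 0 of them (adjusted p = 0.426 to 0.828). R122C 3 was also the library with the most squamous transcripts, with Krt5, a basal cell keratin, at 42.9 FPKM, against at or under 1.70 FPKM in the other R122C mice and at or under 1.65 FPKM in WT. The part of squamous cells in the S100a8 and S100a9 values was not tested.

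Neutrophil genes were close to 0. Of 14 neutrophil markers, 12 fell under the filter. Ly6g, the marker most used for mouse neutrophils, was at or under 0.03 FPKM in R122C and 0.05 FPKM in WT. Mpo and Elane, granule enzymes, were at or under 0.05 FPKM in every library, R122C 3 included, and Cxcr2, a chemokine receptor, was at 0.18 to 0.39 FPKM in R122C and 0.04 to 0.20 FPKM in WT. The 14 markers summed to 4.74, 11.1 and 23.9 FPKM in R122C mice 1 to 3, and to 1.30 to 2.54 FPKM in WT. Most of the sum in R122C 3 was Ltf, lactoferrin, which glands also secrete, at 18.49 FPKM. Of the 2 markers tested Retnlg, a resistin-like gene, rose by 1.94 ± 0.30 (SE, limma adjusted p = 0.00754), with 2.72, 6.86 and 3.64 FPKM in R122C and 0.36, 0.39 and 0.26 FPKM in WT, highest in R122C 2, where S100a8 and S100a9 were listed at 0. WT means were 0.34 FPKM for Retnlg and 0.9 FPKM for Ltf, both under the filter level. These 2 genes were thus tested through their R122C values and could not have been called lower. None of the 9 neutrophil chemoattractants and growth factors in the table reached the filter. The part of neutrophils in the S100a8 and S100a9 values was not tested either.

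Receptors for secreted S100 proteins showed 0 calls among 3 tested. Ager, which encodes RAGE, was at or under 0.10 FPKM in R122C and listed at 0 in WT. Tlr4, the receptor that senses calprotectin and endotoxin, was at 12.35, 9.41 and 7.55 FPKM in R122C mice 1 to 3, against 8.41, 8.49 and 8.43 FPKM in WT mice 1 to 3 (log2 fold change 0.17 ± 0.21 SE, adjusted p = 0.728 by limma). Bsg, basigin, was at 913, 825 and 944 FPKM in R122C mice 1 to 3, against 499, 599 and 686 FPKM in WT mice 1 to 3, without overlap but short of the threshold except with a common FPKM total, where adjusted p = 0.0413 (log2 fold change 0.60 ± 0.21 SE, adjusted p = 0.163 by limma). Cd36, a fatty acid receptor that also binds these proteins, was at 21.08, 15.19 and 2.71 FPKM in R122C mice 1 to 3, against 63.27, 27.19 and 21.28 FPKM in WT mice 1 to 3 (adjusted p = 0.204 by limma). At an unadjusted limma p under 0.05, Bsg was higher and Cd36 lower. Of 8 tested genes on a list of TLR4 and RAGE signalling genes, co-receptors included, 1 rose and 0 fell, with a median of 0.22. That gene was Cd14, a co-receptor of Tlr4, at 4.88, 3.76 and 9.31 FPKM in R122C and 1.59, 1.33 and 0.80 FPKM in WT (log2 fold change 1.58 ± 0.31 SE, adjusted p = 0.0224 by limma, and 0.0875 without WT 2 or 0.0816 without WT 3). Its adjusted p was 0.0515 with median-of-ratios scaling, 0.0564 with quantile normalization and 0.0727 with no filter. Myd88 and Rela, each with a log2 fold change of 0.57, did not pass (limma adjusted p = 0.119 and 0.141). With Cd14, 3 of the 8 were higher at an unadjusted limma p under 0.05 and 0 lower. Over all tested genes these shares were 15.3% and 4.88%.

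**Figure D3:**
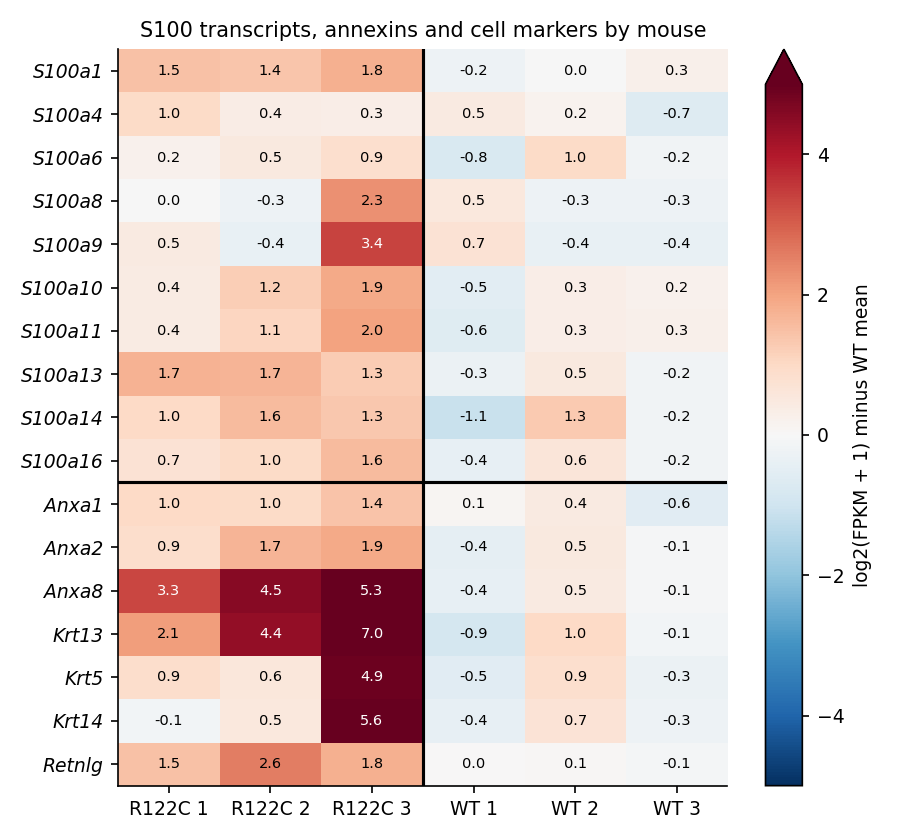
Log2(FPKM + 1) of each library minus the WT mean of that gene, for the 10 S100 genes, 3 annexins, 3 squamous keratins and Retnlg, with R122C mice in the left columns and WT mice in the right ones (colours saturate at 5). S100a1 and S100a13 are raised in every R122C mouse, whereas S100a8 and S100a9 are raised in R122C 3, the mouse with high Krt5 and Krt14.

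Other family members were scarce. Of 8 listed relatives, 7 were in the table, and of these only S100g, the vitamin D-dependent calbindin, reached the filter. It was at 0.70, 0.17 and 5.03 FPKM in R122C mice 1 to 3, against 0, 0.62 and 0.55 FPKM in WT mice 1 to 3, and did not pass (limma adjusted p = 0.513). As with S100a9, R122C 3 held the high value, and S100g reached the filter only through that library. S100a7a, psoriasin, was at 1.60 FPKM in R122C 3 and at or under 0.17 FPKM elsewhere, and S100b, the glial member, was at 0.27 to 0.31 FPKM in R122C and 0.40 to 0.53 FPKM in WT. Of the 5 tested genes of the list of S100-fused and cornified envelope genes, 0 passed and 0 had an unadjusted limma p under 0.05. Rptn, repetin, was at 0.80, 0.07 and 19.36 FPKM in R122C mice 1 to 3, and at or under 0.27 FPKM in WT (limma adjusted p = 0.384). Rptn and Lor, also on that list, reached the filter only through R122C 3.

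The order of levels was S100a6, S100a11 and S100a1 at the top of both groups, then S100a16, S100a14, S100a13 and S100a10, then S100a4, S100a9 and S100a8. In R122C the ranges of S100a6, S100a11 and S100a1 overlapped one another in turn, from 1528 ± 342 and 975 ± 551 to 459 ± 61.7 FPKM (SD, n = 3). In WT the same 3 genes were apart, at 1186 ± 747, 407 ± 129 and 157 ± 27.8 FPKM (SD, n = 3). From S100a16 and S100a14 through S100a13 to S100a10, each range overlapped with the next in both groups. The order of adjacent genes among these 4 is therefore not resolved. S100a10 did lie wholly below S100a16, at 25.65 to 73.85 against 75.54 to 137.37 FPKM in R122C. In WT these ranges were 12.99 to 24.13 and 34.1 to 69.21 FPKM. S100a10 also lay apart from S100a4. Together the 10 genes made up 0.412%, 0.485% and 0.759% of the summed FPKM in R122C mice 1 to 3, against 0.159%, 0.409% and 0.237% in WT mice 1 to 3. The R122C shares were all higher (log2 difference 1.10, exact two-sided permutation p = 0.1, the smallest possible). Once the 10 most abundant genes of each library were left out of the total, WT 2 exceeded R122C 1 and R122C 2, with shares of 0.546%, 0.684% and 1.07% in R122C and 0.296%, 0.747% and 0.440% in WT (log2 difference 0.68, exact permutation p = 0.3).

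By the pattern over the 6 mice, each gene centred on its own mean, the gene nearest to S100a1 among 11420 was Tspan14, a tetraspanin, with a mean absolute difference of 0.10 on the log2 scale, followed by Pik3r5, a regulatory subunit of phosphoinositide 3-kinase, and Siglecf, a sialic acid-binding receptor known from eosinophils. Nearest to S100a13 was Dynlt1b, a dynein light chain gene, at 0.12, followed by Wfdc1 and Wdr72. S100a13 ranked 352nd of the 11420 by likeness to S100a1, at 0.34, and S100a1 ranked 147th by likeness to S100a13. Dynlt1b was at 61.7, 63.3 and 45.3 FPKM in R122C mice 1 to 3, against 17.8, 32.4 and 17.6 FPKM in WT mice 1 to 3, and so was low in R122C 3 and high in WT 2 as S100a13 was. Tspan14 was at 45.3, 43.2 and 47.2 FPKM in R122C mice 1 to 3, against 15.1, 14.6 and 19.2 FPKM in WT mice 1 to 3, highest in the third mouse of each group as S100a1 was. Dynlt1b and Tspan14 were picked by likeness over these same values, so the shared pattern follows from the choice.

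**Figure D4:**
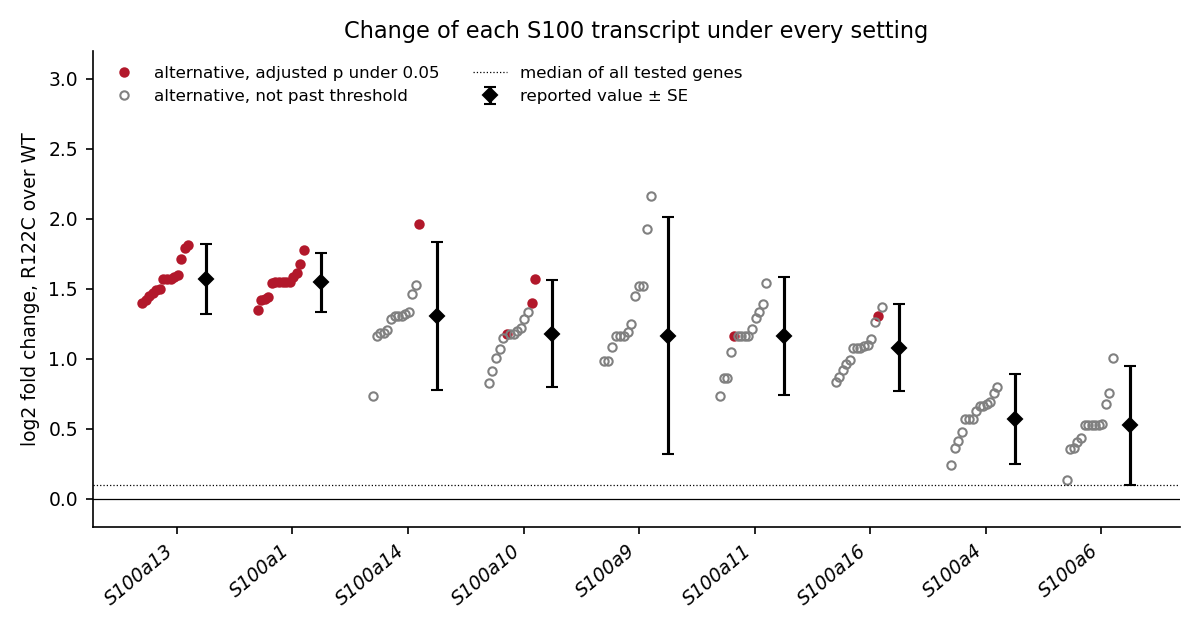
Log2 fold change of R122C over WT for each tested S100 gene: the reported value with its SE as a black diamond, and each alternative setting as a circle, filled red where the adjusted p was under 0.05 and open where it was not. The circles of S100a1 run from 1.35 to 1.77 and those of S100a13 from 1.40 to 1.81, all filled, and the dotted line marks the median of all tested genes at 0.10.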

How the data were processed

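RNA-seq of corpus tissue gave 1 library per mouse, 3 R122C and 3 WT. The authors deposited 1 table of FPKM values. Per the submitters' processing notes, STAR, featureCounts and the build mm10 were used. Versions, settings, strandedness and the step from counts to FPKM: not given in the sources used here. A date replaces the gene name in 26 rows, which were tested and are not named. The 11422 genes averaging 1 FPKM or more were tested as log2(FPKM + 1) with limma 3.58.1 in R 4.3.3 (trended eBayes, no covariate, Benjamini-Hochberg). The pseudocount of 1 shrinks changes of low genes. Depth was estimated from the step between low values of single-transcript genes under 1000 bases, gave 32.2 to 45.4 × 10⁶ with a limit of 1500 bases, and rests on GENCODE M21 lengths, so no counting interval was derived. On simulated data of 11422 genes the test called 42% of 50 genes changed by 1, 98% at 2 and 100% at 3 and 4 (log2). Members and lists were chosen with earlier results of these data known. Beside the 10 members, up to 4 called genes of each list, or else the one of smallest p, were named, with the 3 genes of nearest pattern to each called member and the flanking genes. Others were chosen after their values were seen. Positions are from GENCODE M21 and promoter windows from RefSeq (GRCm38.p6). Figures were drawn with matplotlib 3.10.9.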

Additional observations from a re-analysis of the deposited data

How the results depend on the processing

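S100a1 and S100a13 kept their direction and their call under all 14 alternatives, and 0 of the 10 genes was called lower under any. The count of S100 genes higher was 4 with a common FPKM total and 4 with the replicate block, and 2 to 3 without each library in turn. Over all genes, 602 higher and 95 lower became 1260 higher with a common FPKM total. With median-of-ratios scaling 192 and with quantile normalization 248 were lower. Higher calls made up 86.4% of all calls, and 68.6%, 62.0% and 94.3% under median-of-ratios scaling, quantile normalization and a common total, where the median change was -0.0028, -0.06 and 0.29. Leaving out 1 library gave 246 to 581 higher and 14 to 195 lower. The numbers 1 to 3 were not taken as pairs: same-numbered libraries deviated from their group means with correlations of 0.47, 0.02 and 0.37, and R122C 2 was not closest to WT 2. With the replicate block 1119 genes were higher and 259 lower, S100a10 (0.0228) and S100a11 (0.0366) passed, and Anxa1 (0.0638) did not. The log2 ratio of S100a10 to Anxa2 lay between -0.43 and -0.14 without each library. That of S100a1 to S100a13 was -0.05, ranged from -0.31 to 0.18 without each library, and turned to 0.07 without R122C 1, 0.09 without R122C 2 and 0.18 without WT 3. The causes were not tested. With 3 mice a group, single genes that change by about 1 on the log2 scale are often missed, and values under 1 FPKM rest on few fragments.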

Other observations

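Between the first S100 cluster and the S100a11 and S100a10 pair, 50 genes of the table are annotated. Of these 38 were tested, 30 of which reached the filter only through R122C 3 and so could not be called lower. The test called 2 of the 38 higher in R122C and 0 lower, against 5.27% higher and 0.832% lower over all tested genes. Both called genes lay outside the 30, whose values rested on 1 library. The share over the 38 is therefore not comparable with that over all tested genes. The 2 called genes encode small proline-rich proteins and were named after their values were seen. Sprr2a1 was at 9037, 14984 and 24360 FPKM in R122C mice 1 to 3, against 1977, 3446 and 4555 FPKM in WT mice 1 to 3 (log2 fold change 2.24 ± 0.46 SE, limma adjusted p = 0.0267). Sprr2a3 was at 4348, 8427 and 21836 FPKM in R122C mice 1 to 3, against 168, 262 and 793 FPKM in WT mice 1 to 3 (log2 fold change 4.82 ± 0.68 SE, limma adjusted p = 0.00543). Sprr2a2 missed the threshold (2.21 ± 0.54 SE, adjusted p = 0.0516 by limma). The Sprr2a genes are near-identical copies, so the split of reads between them is uncertain. Their order among the R122C mice was the order seen for S100a11 and S100a10, and also for S100a6 and S100a16.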
